A study of Botryllus schlosseri with 78 samples.

Results

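SHP2 and 8 further signalling proteins of Botryllus schlosseri, a colonial tunicate, were followed across 77 RNA sequencing libraries. They are the 9 rows left when SYK, PLC-g, PI3K, a yes-like kinase, Shc, MEK, ERK, Rac, PAK1 and NFAT are taken out of the 19 signalling rows of a table of 137 transcripts. The 9 are the phosphatases SHP2 and SHIP, the Ras arm made of Grb2, Sos, Ras and Raf, the exchange factor VAV, the kinase PKC and the transcription factor NF-kB. The other 118 rows comprise 45 named FF, 69 named FcoR and 4 products of the Fuhc locus. Members were taken by name and not by a threshold on values.

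Neighbouring colonies of this animal meet at their ampullae, the blind endings of the blood vessels in the tunic, and then fuse or reject. The study searched transcriptomes for candidate receptors of this response and listed signalling proteins beside them. In mammals, receptors of immune cells carry short tyrosine motifs: kinases such as SYK bind activating motifs once these are phosphorylated, while the phosphatases SHP2 and SHIP bind inhibitory ones. SHP2 removes phosphate from tyrosine and, in many mammalian cells, also aids signalling from growth factor receptors to Ras. SHIP removes a phosphate from the membrane lipid that PI3K makes. Downstream, the adaptor Grb2 brings the exchange factor Sos to Ras, and Ras in turn activates the kinase Raf. VAV activates Rac and its relatives, PKC is activated by the lipid product of PLC-g, and NF-kB is a transcription factor of immune responses.

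Whole blood came from the individuals FL3, FLLC2 and LFC4, 1 library each. A sort on integrin alpha-6 (IA6) yielded positive cells of individuals 79C, 79G, 81A and 81C and negative cells of 81A and 81C, with 2 libraries per individual and fraction. A sort on aldehyde dehydrogenase (ALDH) split cells of individuals 1 and 7, labelled losers, and 2B and 6, labelled winners, into 1 positive and 1 negative library each. Ampullae came from the colonies SMGO and SMH and from SB825-FDA, SB825-FEA and SB825-FX, with 3 libraries each after averaging a pair of SMGO libraries named technical. For whole bodies there were 3 libraries of each of SKI, SB825, SMH and SMGO. Male whole colonies (genotypes MDR, MADM and M001) were sampled once at each of 7 stages of the blastogenetic cycle, the recurring cycle of budding, named A1, A2, B1, B2, C1, C2 and D. Sorted vascular cells that the labels call BSA gave 5 libraries. No treatment is named for any group, and the labels do not say whether replicate libraries came from separate pieces or colonies, so the spread behind each p-value may be technical.

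Values are TMM-scaled units, read as TPM (reads per transcript length, brought to a common total) with a scaling factor per library. Library sums ran from 308919 to 1466577 over the 137 rows, so a value is close to a share of this set, and a rise elsewhere in the table lowers it. Total reads are unknown. Of 11 marker names looked for, including vasa, piwi, myosin, integrin alpha-6 and aldehyde dehydrogenase, 0 occur in the table, so neither the tissues nor the sorts could be checked. The BSA libraries SB07-09 and SB10-11 stood apart: 7 and 18 of 137 rows were above a value of 1, against 58 to 93 in the other 75 libraries. In SB07-09, 6 of the 9 members were at 0 and only Sos, Ras and VAV had a value. In SB10-11, 3 of the 9 were at 0, namely SHP2, SHIP and Sos. Both libraries are left out below wherever this is stated.

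All 9 members were detected in each of the other 75 libraries. Together they made up between 24.4% and 41.2% of a library's sum. Mean levels over all 77 libraries ran from 8309 for Sos to 114146 for Ras, with Grb2 at 67289, NF-kB at 35602, VAV at 26909.8, SHIP at 11627, SHP2 at 11601, Raf at 9875 and PKC at 8849. Ras and Grb2 were thus the abundant members on this scale, and both phosphatases lay far lower.

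The members also varied little. Over 26 means per class and colony, without the sparse BSA libraries, the SD of log2 values had a median of 0.41 over the 9 members, from 0.31 for Raf to 0.54 for NF-kB. The 10 other signalling proteins had a median of 0.59, lowest for SYK at 0.49 and highest for NFAT. The Fuhc products had a median of 0.78, and the FF and FcoR rows, many of them at 0 in some colonies, had 4.01 and 3.71. Ordered by SD, the 36 rows detected in all 26 means had Raf in place 1, VAV in place 2, Grb2 in place 3 and Ras in place 4, with SHP2 in place 7.

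SHP2 was highest in whole colonies and, leaving out the sparse BSA libraries SB07-09 and SB10-11, lowest in blood. Blood held 6156, 6390.4 and 6105 in FL3, FLLC2 and LFC4. Whole bodies held 14467 ± 2286 (SD, n = 4 colonies) and male colonies 14834 ± 2138 (n = 3 genotypes). The blood values lay below every whole-body and male-colony library, the lowest of which were 11291 and 10784.

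The class means of the fractions and the vessels lay between these. Levels of SHP2 were 13686 ± 2313 in ALDH-negative and 11217 ± 515 in ALDH-positive cells (n = 4 individuals each), 9866 ± 1491 in IA6-positive cells (n = 4) and 7689 ± 788 in IA6-negative cells (n = 2). Single libraries crossed the order: IA6-positive 81C replicate 2 held 5979.8, below all 3 blood libraries. In ampullae SHP2 was 9448 ± 357 (n = 5 lines or colonies). The 3 denser BSA libraries held 6998, 8207 and 12404, and with the sparse ones the BSA mean was 5522 (n = 5), below that of blood. IA6-positive cells, ampullae and BSA cells are neighbours in this order and their ranges overlap, as do those of whole bodies and male colonies.

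**Figure D1:**
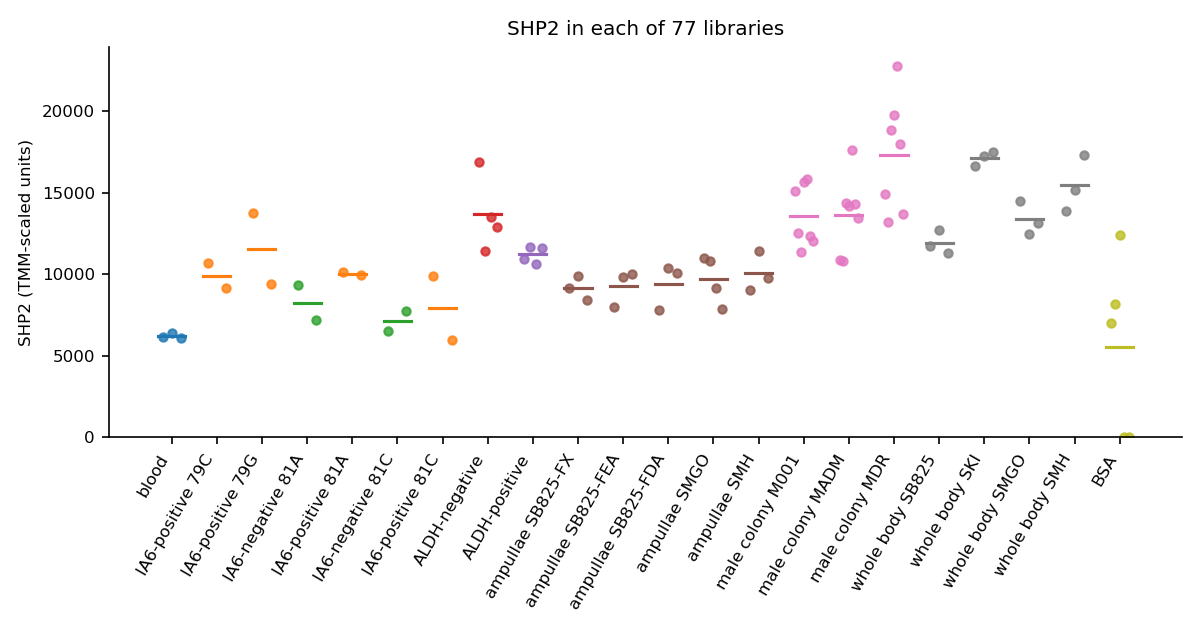
SHP2 in TMM-scaled units for each library, by group; bars are group means, and colours mark sample classes. Blood sits at 6105 to 6390.4, ampullae reach at most 11412, and the BSA libraries SB07-09 and SB10-11 are at 0.

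Across 7 sample classes (blood, IA6-positive cells, ALDH-positive cells, ampullae, whole bodies, male colonies and BSA cells, without the negative fractions), tested on 28 means per class and colony, 0 of 9 members passed an adjusted p of 0.05 in limma (20 of 126 rows passed, 15.9%), and 2 members, VAV and SHIP, had an unadjusted p under 0.05. That result rests on the sparse BSA libraries. Without SB07-09 and SB10-11, 7 of 9 members passed, against 60 of 126 rows (47.6%). SHP2 was then 2.34-fold higher in male colonies than in blood (limma, adjusted p = 0.000321), and SHIP 1.99-fold higher in whole bodies than in BSA cells (adjusted p = 0.000550). Library sums averaged 1004447 in male colonies and 785063 in blood, so as a share of the sum the SHP2 difference is smaller. The SHIP difference fell from 0.995 to 0.19 on the log2 scale with values also scaled to the signalling rows, a fit chosen after seeing the data. SMGO and SMH enter both whole bodies and ampullae in this test.

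The phosphatases had different profiles over the classes. SHIP was 15391 ± 1193 in blood (n = 3), close to the 16280.3 ± 1799 of whole bodies (n = 4) in the deposited values. The SHP2 mean in blood was the lowest of the classes once the sparse BSA libraries were left out. Library sums averaged 785063 in blood and 1217580 in whole bodies, so as a share of the sum SHIP was higher in blood. The ratio of SHP2 to SHIP was 0.370, 0.419 and 0.428 in the blood libraries. It was between 0.914 and 2.11 in the 21 male-colony libraries, a range that does not meet that of blood. In these bulk samples, fewer cells of a type and less RNA per cell cannot be told apart.

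Members of the Ras arm had different profiles over the classes. Grb2, the adaptor, averaged 84144 ± 8904 in whole bodies (n = 4) and 40165 ± 4325 in blood (n = 3), a 2.08-fold difference (limma without the sparse BSA libraries, adjusted p = 0.000795). ALDH-negative cells, which are not among the tested classes, had a higher mean of 97438 (n = 4). Library sums averaged 1217580 in whole bodies (n = 12 libraries) and 785063 in blood (n = 3). As a share of the library sum, the Grb2 difference between whole bodies and blood is therefore smaller than 2.08-fold. Sos, the exchange factor that Grb2 recruits, was instead high in blood at 10748 ± 1752 (n = 3) and in whole bodies at 11751 ± 2027. In IA6-positive cells it was 5598 ± 1825 (n = 4), 2.18-fold below whole bodies (adjusted p = 0.00172). The library sum of IA6-positive cells averaged 909414, so this Sos difference is also smaller as a share of the sum.

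The balance of adaptor to exchange factor varied widely, and was not tested between classes. The ratio of Grb2 to Sos was 3.17, 3.86 and 4.33 in blood, and from 11.5 to 22.2 in the 4 IA6-negative libraries. In whole bodies it ran from 5.15 to 10.5, between those ranges. Other classes crossed them: ampullae ran from 4.15 to 13.7 and ALDH-negative cells from 10.9 to 25.1.

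Ras and Raf differed less by class. Raf passed without the sparse libraries, 1.56-fold higher in blood than in IA6-positive cells (adjusted p = 0.0389). Ras was 147502 ± 52085 in IA6-positive cells (n = 4) and 89354 ± 8598 in blood (n = 3), and did not pass (adjusted p = 0.264). It did pass with all BSA libraries and values scaled to the library sum (0.43 on the log2 scale, adjusted p = 0.0382). It also passed when scaled to the signalling rows without the sparse libraries (0.86, adjusted p = 0.000670), a fit chosen after seeing the data. Its IA6 values split by individual: 79G and 81C averaged 189375 and 195468, and 79C and 81A 107525 and 97639.

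Among the remaining members, NF-kB was 2.55-fold higher in whole bodies than in ALDH-positive cells (adjusted p = 0.000550) and VAV 1.75-fold higher in whole bodies than in BSA cells (adjusted p = 0.00440). Library sums averaged 1217580 in whole bodies and 887573 in ALDH-positive cells, so the NF-kB difference is smaller as a share of the sum. The VAV difference fell from 0.80 to 0.0032 on the log2 scale with values also scaled to the signalling rows, a fit chosen after seeing the data. PKC did not pass (adjusted p = 0.126). Its whole-body mean was 11883 ± 3729 (n = 4) and its male-colony mean 7506 ± 3201 (n = 3), both with wide differences between colonies that are described below.

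**Figure D2:**
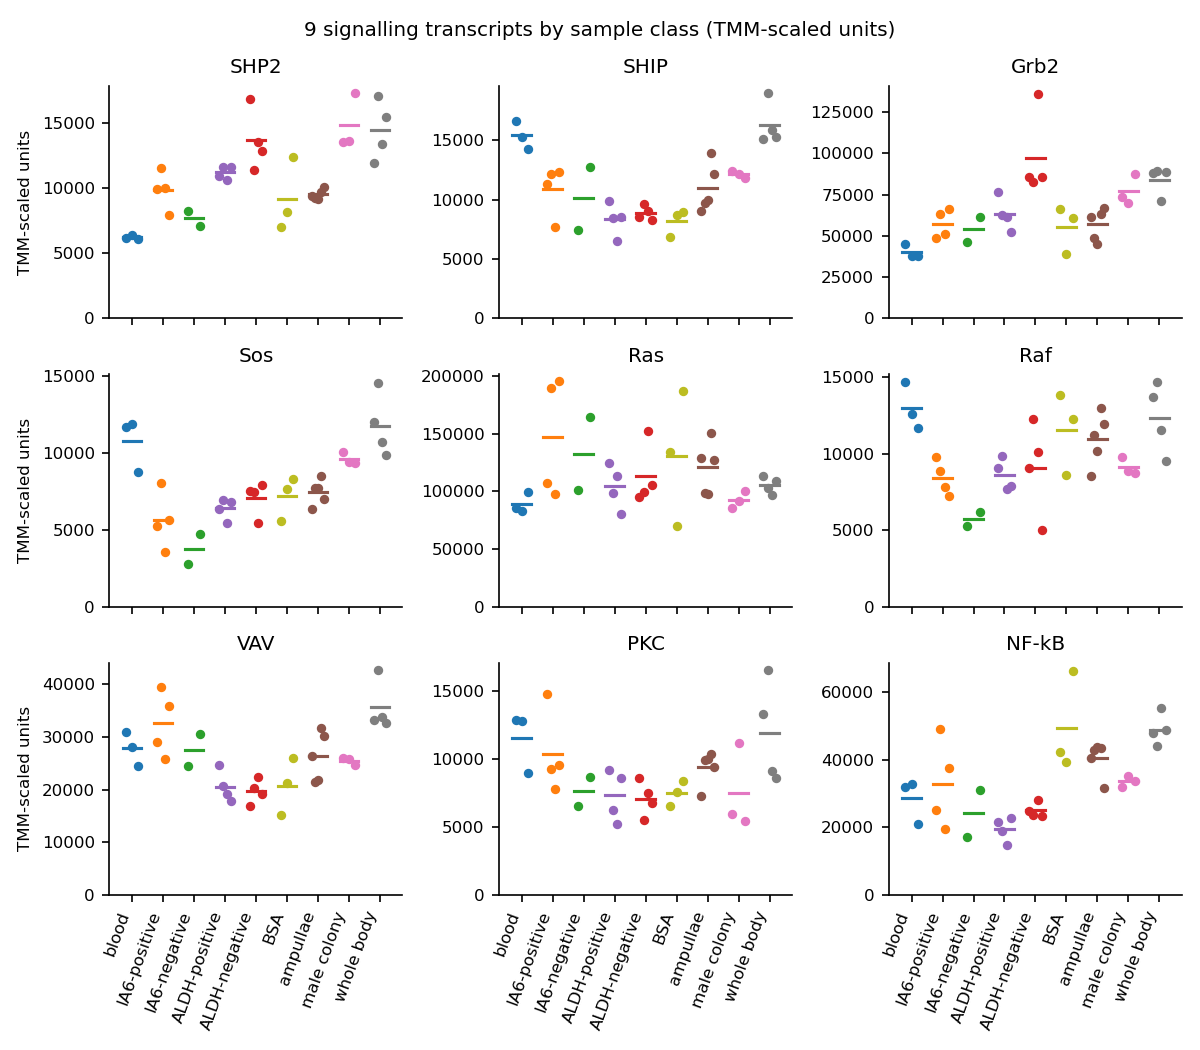
The 9 members by sample class, in TMM-scaled units; each point is the mean of a colony, line or individual (SMGO ampullae over all 4 libraries), bars are class means, and the BSA libraries SB07-09 and SB10-11 are left out. SHP2 and Grb2 have their lowest class means in blood, SHIP, Sos and Raf are high there, and PKC spreads widely within whole bodies and male colonies.

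Over the 26 means the 36 pairs of members had a median Spearman correlation of 0.31, and 30 were positive. These are descriptions, since means share colonies and every value is a share of 1 sum. SHIP and Sos were the closest pair (rho = 0.79), followed by SHP2 and Grb2 (0.76), while Sos and Ras ran most against each other (-0.37). The rows most like SHP2 were Grb2, BHF (0.73), a product of the Fuhc locus, and FcoR20 (0.70). VAV was most like Rac (0.82), which VAV proteins activate in mammals. PKC was equally close to SHIP and SYK (0.62), and Raf was closest to NFAT (0.70). The nearest rows to NF-kB and Ras were NFAT (0.53) and the yes-like kinase (0.44), so Ras had the loosest tie of the 9.

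Ampullae and whole bodies could be compared within the colonies SMGO and SMH. In ampullae, SHP2, NF-kB, Sos and Grb2 were lower and Ras was higher. With colony as a block in limma, 5 of 9 members passed, against 35 of 81 rows (43.2%). Of these, 4 members were lower in ampullae (15 rows in all, 18.5%) and 1 was higher (20 rows, 24.7%). The median log2 difference was -0.29 over the members and 0.01 over all rows. Among the 10 other signalling proteins, PI3K and the yes-like kinase passed as higher and NFAT as lower.

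SHP2 changed with the smallest p of the members. In SMGO ampullae it was 7864, 9169 and 10905, and in SMH ampullae 9014, 9765 and 11412. In SMGO whole bodies it was 12477, 13150.3 and 14495, and in SMH whole bodies 13903, 15165 and 17299. Every ampullae value lay below every whole-body value. The log2 difference was -0.58 ± 0.10 (SE; limma, adjusted p = 0.000951), a level in ampullae 0.671 times that of whole bodies. By colony it was -0.53 in SMGO and -0.62 in SMH, a difference between colonies of -0.09 ± 0.22 (adjusted p = 0.906). With all ampullae lines and whole-body colonies it was -0.61 (adjusted p = 0.0305). That fit, also used for other members below, takes means per tissue and colony and has no colony block.

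The other phosphatase, SHIP, was 12767 ± 2754 in ampullae and 15541 ± 498 in whole bodies (SD, n = 6 each), and did not pass (-0.31 ± 0.14, adjusted p = 0.0896). It passed with all colonies included (-0.61, adjusted p = 0.0355) and with values scaled to the signalling rows (-0.32, adjusted p = 0.0460), as it did without SMH ampullae replicate 3 (-0.39, adjusted p = 0.0395).

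In the Ras arm the directions were opposed. Ras ran from 118579 to 162654 in ampullae, with a median of 140687.5, and from 85920 to 118272 in whole bodies, with a median of 105834. The ranges adjoin without overlap. The difference was 0.44 ± 0.12 (adjusted p = 0.00994). It was 0.66 in SMGO and 0.23 in SMH, and the difference between colonies did not pass (-0.43 ± 0.19, adjusted p = 0.280). Over all lines and colonies the Ras difference was 0.18 and did not pass (adjusted p = 0.406). That fit has no colony block, and the other lines and colonies gave no pair of tissues under the same name. It therefore cannot show whether the Ras difference is confined to SMGO and SMH.

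Sos, which loads Ras, ran from 5246 to 9561 in ampullae (median 7905) and from 8816 to 11267 in whole bodies (median 10354). These ranges overlap by their edges. Its difference was -0.45 ± 0.14 (adjusted p = 0.0244). Grb2 ran from 51352 to 72495 (median 65333) and from 67838 to 96162 (median 75487), overlapping more, with a difference of -0.29 ± 0.10 (adjusted p = 0.0332). The Grb2 call was lost without limma's trend (adjusted p = 0.0708) and in 8 of 12 fits that left out a replicate, with adjusted p up to 0.0821. It held when the replicate left out was SMGO ampullae 2, the averaged SMGO pair, SMGO whole body 3 or SMH whole body 3. The Sos call was lost in 4 of 12, without SMGO ampullae 2, SMH ampullae 1 or 2, or SMGO whole body 2, with adjusted p up to 0.0560.

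NF-kB ran from 17970 to 47378 in ampullae (median 38245) and from 46488 to 56126 in whole bodies (median 52399). The low value is SMH replicate 1, and the other 5 ampullae values start at 36953. The difference was -0.56 ± 0.17 (adjusted p = 0.0244); without that library it was -0.38 and still passed. The call was lost without SMGO ampullae replicate 2 or SMH whole-body replicate 1 (adjusted p up to 0.0550). It did not pass over all lines and colonies (-0.32, adjusted p = 0.140). Raf (0.23 ± 0.10, adjusted p = 0.0998), PKC (0.12 ± 0.13, adjusted p = 0.453) and VAV (-0.12 ± 0.08, adjusted p = 0.240) did not pass.

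**Figure D3:**
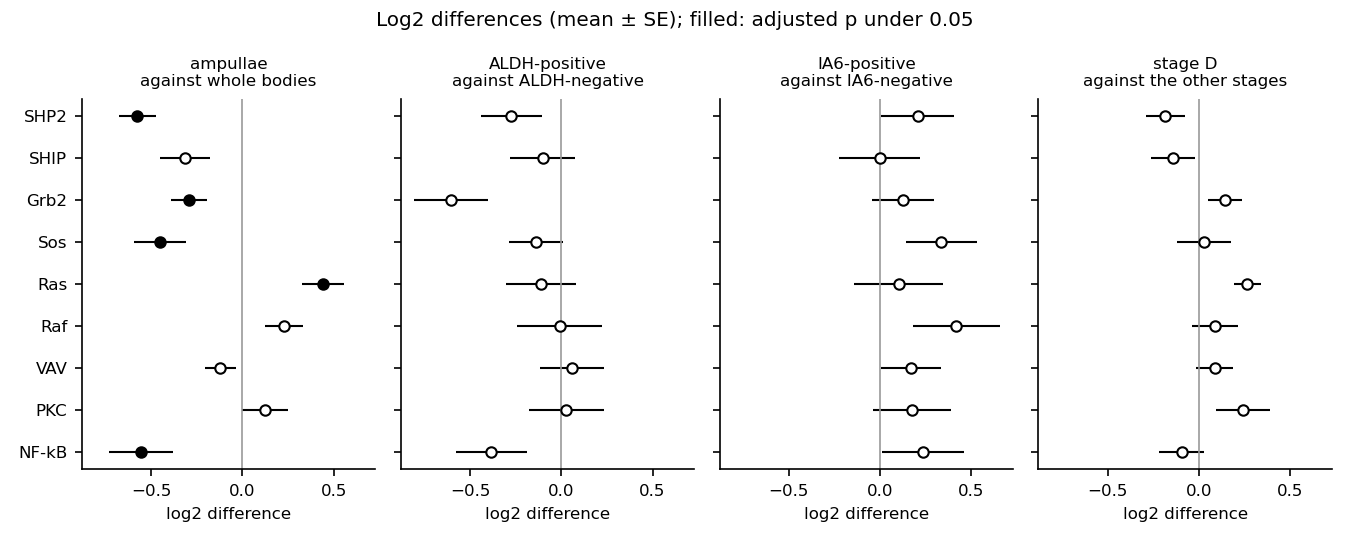
Log2 differences of the 9 members with their SE in 4 comparisons; filled points passed an adjusted p of 0.05. In ampullae SHP2, NF-kB, Sos and Grb2 lie left of 0 and Ras right of it, and no point is filled in the other panels.

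Whole bodies of the 4 colonies differed in most members, and which colony was highest depended on the scaling. SKI was highest for 7 of 9 members in the deposited values, for 2 (PKC and Sos) with values scaled to the library sum, and for 4 (VAV, Raf, PKC and Sos) with values scaled to the signalling rows. The library sum averaged 1395029 in SKI and from 1092308 to 1237271 in the other colonies (n = 3 each). In limma 6 of 9 members passed, against 86 of 110 rows (78.2%), so the share is below that of the table. The median size of the difference between the highest and the lowest colony was 0.38 on the log2 scale over the members and 4.39 over all rows. SHP2, PKC and NF-kB passed under both other scalings tried, PKC with SKI highest and NF-kB with SMGO highest in each, but SHP2 with SMH highest in place of SKI. Sos and Raf passed under neither, with adjusted p from 0.0979 to 0.393, and VAV did not pass with values scaled to the library sum (adjusted p = 0.107).

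SHP2 was 16628, 17231 and 17493 in SKI, and 13903, 15165 and 17299 in SMH. In SMGO it was 12477, 13150.3 and 14495, and in SB825 11291, 11737 and 12733. SKI and SMH overlap, as do SMGO and SMH and SMGO and SB825, while SKI and SB825 are far apart, 1.44-fold or 0.52 on the log2 scale (adjusted p = 0.00256). Scaled to the library sum, SKI exceeded SB825 by 0.35. The lowest colony was SB825 under each scaling.

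PKC showed the widest range of the members. SKI held 14279, 16264 and 18998, and SB825 12278, 13167 and 14398. The other colonies were lower, SMGO at 8507, 9348 and 9516 and SMH at 6772, 9316 and 9749. All libraries of SKI and SB825 exceeded all of SMGO and SMH, and SKI was 1.93-fold above SMH (adjusted p = 0.000826).

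NF-kB had another order, highest in SMGO at 54129, 55282 and 56126 and lowest in SKI at 42708, 42710.3 and 46399. This 1.26-fold difference passed (adjusted p = 0.00256). VAV (1.30-fold, adjusted p = 0.00313), Raf (1.55-fold, adjusted p = 0.00664) and Sos (1.47-fold, adjusted p = 0.00742) were highest in SKI and lowest in SMH in the deposited values. SHIP (adjusted p = 0.0666), Grb2 (0.160) and Ras (0.623) did not pass, though SHIP did without SKI replicate 2 (adjusted p = 0.00494). SHIP also passed with values scaled to the signalling rows (adjusted p = 0.0284), with SMH highest in place of SKI. Of the 10 other signalling proteins 6 passed: SYK, PLC-g, NFAT, PAK1, Rac and the yes-like kinase. Whole-body libraries of SMGO and SMH serve in this comparison and in that with ampullae.

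In ampullae of 5 lines and colonies SHP2 had the largest p of all 100 rows tested. Its means were 9166 ± 728 in SB825-FX, 9267 ± 1097 in SB825-FEA, 9429 ± 1408 in SB825-FDA, 9313 ± 1526 in SMGO and 10063.5 ± 1227 in SMH (SD, n = 3 each). Highest and lowest differed by 0.13 on the log2 scale (limma, adjusted p = 0.926), and the ranges of all 5 overlap. Scaled to the library sum they spread further, 0.48 from SMGO to SB825-FX, and did not pass (adjusted p = 0.126).

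Of the 9 members 4 passed there, against 61 of 100 rows (61.0%). VAV was 31358 ± 4518 in SMGO and 21454 ± 3312 in SB825-FEA (n = 3 each; adjusted p = 0.0141). Raf was 12586 ± 1425 in SMGO and 8562 ± 742 in SB825-FDA (adjusted p = 0.0172). Ras was 151744 ± 9488 in SMGO and 98839 ± 23329 in SB825-FEA (adjusted p = 0.0202), and Grb2 67042 ± 4772 in SMH and 44956 ± 7551 in SB825-FX (adjusted p = 0.0286). The 4 calls depended on the settings: 0 members passed without limma's trend and 0 with values scaled to the signalling rows, and 1, Raf, with values scaled to the library sum, where SB825-FEA was highest in place of SMGO. Leaving out SB825-FDA replicate 3 ended the call of Raf (adjusted p = 0.0832) and leaving out SMGO replicate 2 that of Ras (adjusted p = 0.0621). That of Grb2 was lost in 6 of 15 such fits, with SB825-FX replicate 1 or 2, SB825-FEA replicate 1, SMH replicate 2 or 3 or the averaged SMGO pair left out (adjusted p up to 0.0647). SB825-FX, SB825-FEA and SB825-FDA share the name SB825, and whether they are related is not stated in the sources used here.

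Male colonies of 3 genotypes differed in PKC, SHP2, Grb2 and Ras. With stage as a block, 4 of 9 members passed, against 85 of 106 rows (80.2%), again a smaller share than in the table as a whole. The other signalling proteins passed in 7 of 10 cases.

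PKC was highest in MADM, where it ran from 9135 to 13696 with a median of 11619 (n = 7 stages). In M001 it ran from 4245 to 7176 (median 6299.9) and in MDR from 4372 to 7235 (median 5161). The lowest MADM library exceeded the highest of the other genotypes, and MADM was 2.09-fold above MDR (limma, adjusted p = 4.42e-06).

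SHP2 was highest in MDR, from 13224 to 22784 with a median of 17953 (n = 7). In MADM it ran from 10784 to 17608 (median 14167) and in M001 from 11375 to 15825 (median 12531). The ranges overlap, and MDR was 1.26-fold above M001 (adjusted p = 0.00536). Grb2 followed the same order at its top, 1.24-fold higher in MDR than in MADM (87494 ± 12273 and 70197 ± 7846, n = 7 each; adjusted p = 0.00621). Ras was 1.17-fold higher in MDR than in M001 (adjusted p = 0.0154), but not without the stage block (adjusted p = 0.0609). SHIP, Sos, Raf, VAV and NF-kB did not pass, with adjusted p from 0.340 to 0.856. With values scaled to the library sum 6 members passed, VAV (0.19 on the log2 scale, adjusted p = 0.0365) and Raf (0.29, adjusted p = 0.0171) among them, both higher in M001 than in MDR.

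Over the cycle, SHP2 was highest at C1 in each of the 3 genotypes in the deposited values. It was 15825 in M001, 17608 in MADM and 22784 in MDR at C1, and 12531, 10784 and 13224 at A2. In M001 stage B2 was close to C1, at 15632. The library sum of M001 was 855616 at B2 and 933316 at C1, so as a share of the sum B2 was higher. The fold between C1 and A2 was 1.53, and the stage test did not pass after adjustment (limma F test, adjusted p = 0.331). No member passed over stages, where 1 of 108 rows did (0.926%). At an unadjusted p under 0.05 stood 2 members, SHP2 and Ras, and 8 of 108 rows (7.41%). SHP2 had the fourth smallest p of the table. With 1 library per genotype and stage, changes of a single genotype have no replicate.

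Stage D, the end of the cycle, was also set against the mean of the other stages. Here 0 of 9 members and 0 of 108 rows passed (0%), and 7 rows (6.48%), 1 of them a member, had an unadjusted p under 0.05. That member was Ras, at 106304 in M001, 93619 in MADM and 125115 in MDR at stage D. In M001 and MDR these were the highest deposited values of the 7 stages, and in MADM it was the third highest. The library sums of M001 and MDR were also highest at stage D, at 1146147 and 1141257. The difference was 0.26 ± 0.07 (adjusted p = 0.183). It passed without the MADM library of stage C2 (0.28, adjusted p = 0.0453) and without that of stage D (0.38, adjusted p = 0.0172). Under 6 other settings the Ras difference ran from 0.094 to 0.26 and did not pass (limma, adjusted p from 0.130 to 0.604).

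**Figure D4:**
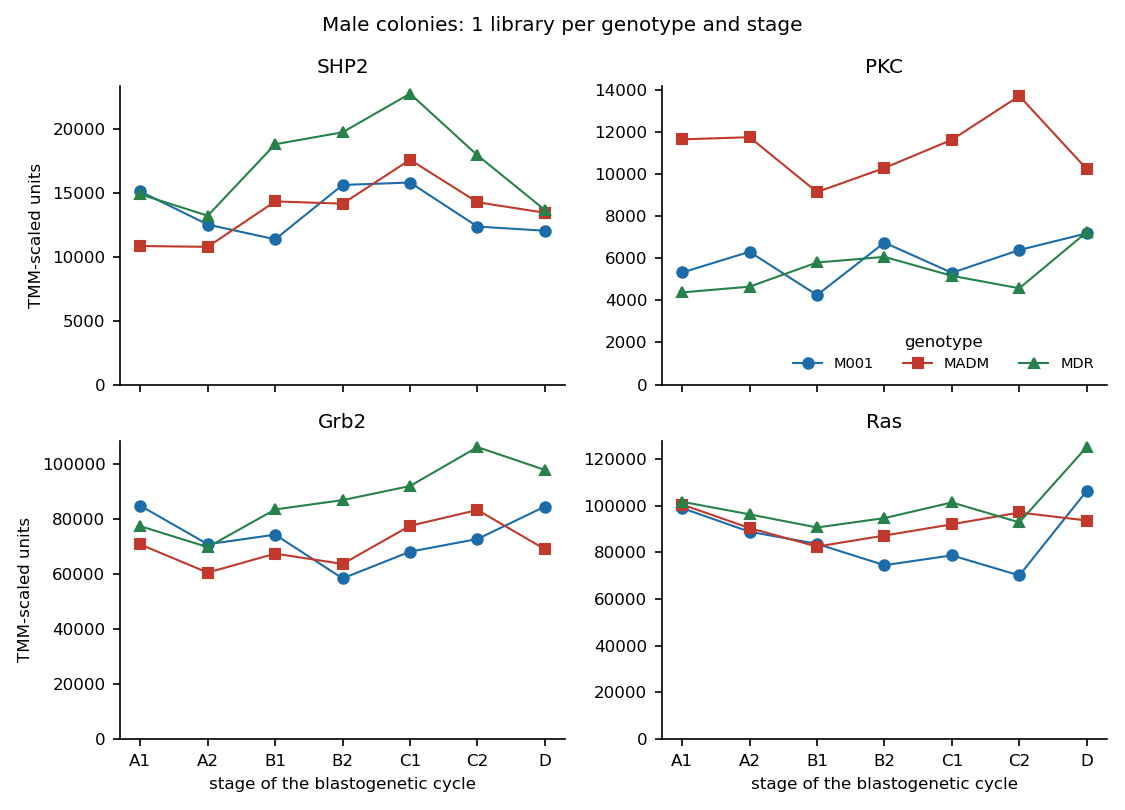
SHP2, PKC, Grb2 and Ras in TMM-scaled units over the 7 stages of the blastogenetic cycle, 1 library per point and 1 line per male genotype. PKC of MADM lies above the other genotypes at all 7 stages. SHP2 is highest at C1 in each genotype in these units, in M001 only just above B2.

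ALDH-positive and ALDH-negative cells of the same individuals gave no call: 0 of 9 members and 0 of 89 rows passed (0%), and 9 rows (10.1%), among them 1 member, had an unadjusted p under 0.05. That member was Grb2. It was 76349, 62679, 61550.01 and 52369 in positive cells of individuals 1, 2B, 6 and 7, and 85420.4, 82696, 135960 and 85674 in their negative cells. Positive cells were lower in 4 of 4 individuals and the ranges do not overlap (log2 difference -0.60 ± 0.20, adjusted p = 0.332 in limma). NF-kB was likewise lower in 4 of 4, at 19367 ± 3571 against 24998 ± 2232 (n = 4 each; -0.38 ± 0.20, adjusted p = 0.433). This was not particular to Grb2 and NF-kB. Sos and ERK were also lower in 4 of 4, with overlapping ranges, and MEK, Rac, PAK1 and Shc without overlap. NFAT was higher in 4 of 4. Of the 10 other signalling proteins, 5 had an unadjusted p under 0.05 in limma. SHP2 was lower in 3 of 4 (-0.27 ± 0.17, adjusted p = 0.549), the exception being individual 2B with 11664 in positive and 11417 in negative cells. The sum of signalling rows was 52.2% ± 6.54 of the library in positive and 62.0% ± 6.53 in negative cells (n = 4 each). Scaled to the signalling rows, the log2 differences shrank to -0.38 for Grb2, -0.16 for NF-kB and -0.050 for SHP2, and under none of 7 alternatives did any of these 3 pass (lowest adjusted p 0.107, 0.386 and 0.476). No member's difference between winners and losers in this effect passed (adjusted p from 0.824 to 0.875).

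IA6-positive and IA6-negative cells of 81A and 81C also gave no call, with 0 of 9 members past the threshold and 1 of 77 rows (1.30%), and 0 members at an unadjusted p under 0.05, where 1 row stood (1.30%). The largest differences were Raf, 0.42 ± 0.24 (adjusted p = 0.742), and Sos, 0.34 ± 0.19 (adjusted p = 0.742). Sos was 3451 and 3687 in positive and 2265 and 3200.4 in negative cells of 81A. In 81C it was 5565 and 5707 in positive and 4604 and 4770.3 in negative cells. In the deposited values, positive libraries were thus higher within each individual, while 81C exceeded 81A in both fractions. Under 7 alternatives the Sos difference ran from 0.16 to 0.34 and did not pass. By their means, VAV, Raf, NF-kB, Grb2, PKC and SHP2 were also higher in positive cells of both individuals, and SHIP and Ras were not. SHP2 had a difference of 0.20 ± 0.20 (adjusted p = 0.742).

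The ratio of SHP2 to SYK, an inhibitory phosphatase over an activating kinase of mammalian immune receptors, was tested within libraries, where no scaling can change it. It differed among whole-body colonies and among male genotypes. In whole bodies the geometric mean was 2.84 in SMH (from 2.31 to 3.27, n = 3), 1.86 in SKI (1.59 to 2.18), 1.31 in SMGO (1.26 to 1.33) and 0.897 in SB825 (0.804 to 1.04). The 4 ranges do not overlap. SMH was 3.17-fold above SB825. The test over the 4 colonies, not of this pair alone, passed (permutation test, 100000 resamples, p = 5.0e-05, adjusted over 7 comparisons 0.000350). With 369600 assignments and groups of equal size, this p is a resampled estimate near the smallest the test can give.

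In male colonies the ratio was 4.80 in MDR (from 2.84 to 6.07, n = 7), 2.73 in M001 (2.26 to 3.63) and 2.11 in MADM (1.64 to 2.76). MDR at stage D, the lowest of its genotype, falls within the range of M001 and just above that of MADM. The genotypes differed (permutation within stage, 100000 resamples, p = 0.000160, adjusted p = 0.000560), 2.27-fold from MADM to MDR. SYK itself passed in both comparisons, highest in SB825 (2.45-fold over SMH, limma adjusted p = 8.41e-05) and in MADM (1.80-fold over MDR, adjusted p = 0.000244), the groups in which the ratio was lowest.

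Elsewhere the ratio did not pass. Ampullae lines ranged from 1.16 in SMGO to 1.84 in SB825-FDA (n = 3 each; permutation test, adjusted p = 0.607). Ampullae of SMGO and SMH had 1.31 and their whole bodies 1.93 (n = 6 each; exact permutation within colony, p = 0.05, adjusted p = 0.117); without SMGO ampullae replicate 2 the log2 difference moved from -0.55 to -0.69 and passed (adjusted p = 0.0117). Stages gave an adjusted p of 0.626. ALDH and IA6 fractions each gave 0.875 by an exact test whose smallest possible two-sided p is 0.125 and 0.0556, so neither could pass. Blood entered no test of the ratio. Its libraries held 0.441, 0.513 and 0.657, below the lowest value of any other class, 0.692.

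**Figure D5:**
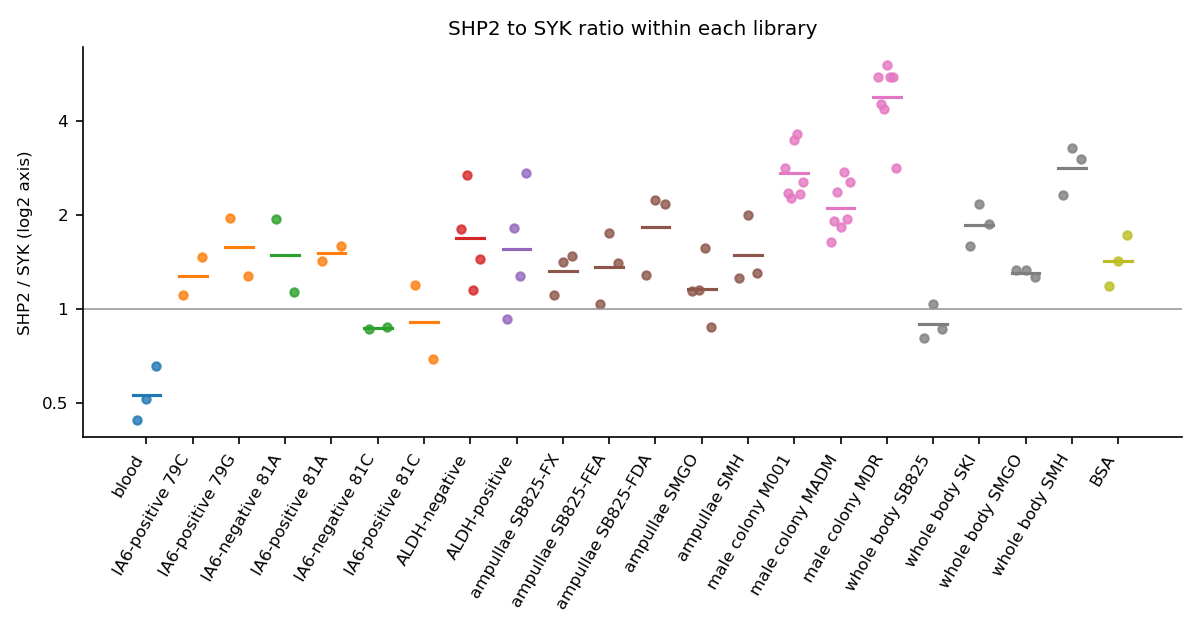
Ratio of SHP2 to SYK within each library on a log2 axis, by group; bars are geometric means, the line marks equal values, and the BSA libraries with both genes at 0 are not drawn. Blood lies between 0.441 and 0.657, and male MDR reaches 6.07.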

How the data were processed

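Poly-A RNA was sequenced as paired ends, per the labels' protocols, which name 2 RNA kits and 2 sequencing centres without assigning libraries to them. Trim Galore, kallisto and RSEM were used, per the submitters' processing notes. The authors deposited signal values, 1 column per library; TMM is stated and TPM is inferred, so the unit is read as TMM-scaled TPM. Depth per library is unknown, and no interval for a value of 0 is given. Of 158 columns, 77 match a label and were used, and 81 have none and were not used. BSA library SB01-03 was not analysed here.

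Members were taken by name, and members and lists were chosen with earlier results of these data known. All 9 members are named. Values were tested as log2(value + 1), a pseudocount of 1, for rows at 1 or more in as many libraries as the smallest group holds, with limma 3.58.1 in R 4.3.3 (trend, Benjamini-Hochberg over all rows tested, threshold 0.05), and folds are on that scale. F tests give the highest over the lowest group. Ratios of SHP2 to SYK were tested by two-sided permutation in Python 3.11.15, by sums of squares for more than 2 groups. Colony, stage, genotype or individual were blocks where the design crosses them. Both tests were checked on simulated data. Replicate numbers are not stated to pair libraries and were not used as pairs in the main fits. Of same-numbered pairs, 4 of 18, 6 of 30 and 1 of 18 correlate over 0.1. With 3 libraries per group this check cannot exclude pairing. Alternatives were pseudocounts of 10 and 100, no filter, 2 scalings, no trend, blocks and leaving out libraries. Other rows are named where called or by Spearman correlation with a member (the 3 highest). Member names match 0 RefSeq symbols, so no positions or sequences are given.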

Additional observations from a re-analysis of the deposited data

Results flagged for a closer look

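In groups of 4 to 7 libraries, 59 sets of values were looked at for a library far from the rest, and 5 were marked, where chance marks about 1 in 20. Grb2 in ALDH-negative cells was 135960 in individual 6, against 82696 to 85674 in the other 3. In male M001 the B1 library held Raf at 6970.1 (other stages 9295 to 11042) and Sos at 6446 (9659 to 11193). NF-kB of M001 at stage D was 35869.9 (other stages 29959 to 32036). Ras of MDR at stage D was 125115 (other stages 90635 to 101635). Male libraries of a genotype differ by stage. No difference in effect between colonies, outcomes or individuals passed among 27 tests of members.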

How the results depend on the processing

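Depth is unknown and values are shares of 137 rows, which limits every fold to a change relative to the table. Scaling to the library sum left 3 members called among whole-body genotypes, 1 among ampullae lines and 1 among classes; ampullae lines had 0 when scaled to signalling rows and 0 without limma's trend. Classes had 7 without SB07-09 and SB10-11 and 7 without BSA, and 8 in a fit chosen after seeing the data, scaled to signalling rows without these libraries. In that fit 4 log2 differences from BSA cells reversed: Raf -0.25 (blood), and NF-kB -0.78, Grb2 -0.18 and Sos -0.086 (whole bodies). Leaving out the sparse libraries without this scaling kept them positive, at 0.19, 0.024, 0.62 and 0.71. Whole bodies exceeded BSA cells by 0.19 for SHIP and 0.0032 for VAV in the scaled fit. Leaving out 1 library gave 3 to 5 members for ampullae against whole bodies, 3 without SMGO ampullae replicate 2, SMH ampullae replicates 1 or 2, SMGO whole-body replicate 2 or SMH whole-body replicate 1. It gave 0 to 1 for stage D and 0 to 2 for classes (1 without SB04 or SB06, 2 without SB07-09), and moved the log2 ratio of SHP2 to SYK between ampullae and whole bodies from -0.69 to -0.46. The cause was not tested. Relative to the deposited values, the library sum shifted the median row by -0.17 (stage D) and 0.13 (ALDH), and signalling rows by 0.20 (ALDH) and -0.18 (IA6). With the replicate number as a block, counts stayed at 6 for whole bodies, 4 for ampullae lines and 5 for ampullae against whole bodies; among ampullae lines SHIP then passed (adjusted p = 0.0221) and Grb2 did not (0.0510).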
